A study of Arabidopsis thaliana with 12 samples.

Results

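Alternative splicing of 7 regulators of flowering that lie outside the *FLM* clade of MADS-box repressors was followed in *Arabidopsis thaliana* after a shift from 16 °C to 25 °C. The genes were *FCA*, *HUA2*, *EDM2*, *SPL2*, *SHL*, *VIL2* and *MOS1*, and all their entries in the deposited table were taken, which gave 9 of the 638 listed events and 7 of the 511 listed genes. All groups were wild-type Col-0 plants grown for 5 weeks at 16 °C in short days of 8 h of light and 16 h of dark. A control group stayed in the cool and was collected on day 1, and 3 further groups were moved to 25 °C and collected on days 1, 3 and 5. Each group had 3 samples of shoot apical meristem-enriched tissue, which the labels describe as also holding young leaves, each from about 10 plants. The table gives the percentage spliced in (PSI, on a scale of 0 to 1) as 1 value per event and group. PSI is the share of transcripts with the isoform set as reference. For a retained intron this is read as the share that keeps the intron. The study describes more retention in the warm for *FLM* and *MAF2*, and PSI of their retained introns was higher at 25 °C. For a skipped exon it is read, from the name of the measure, as the share that includes the exon, which the table does not state. For alternative sites the choice of reference is unknown here, so higher or lower PSI says only that use of the sites shifted.

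The table holds no value per sample and no read number, so neither a spread between replicates nor the depth behind a PSI can be given, and no difference here was tested. Each event is instead marked with the days on which it had been called different from 16 °C, by a Bayes factor on merged replicates after a filter on the replicates. Below, rose and fell refer to such days only. Every event in the table was called on at least 1 day, so the listing of a gene is not a finding about it. All 3 differences of an event share the 16 °C group of day 1, whose plants were younger than those of the warm groups of days 3 and 5.

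The switch to flowering is held back by repressors such as the MADS-box factor FLC and its relatives, and promoted by factors that silence those repressors or that activate the genes for flower identity. Some of these regulators act on RNA, by choosing where transcripts are spliced or polyadenylated. Others read or write histone marks, and the SPL factors, which are kept low in young plants by the microRNA miR156, act directly on transcription as plants age.

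*FCA* (AT4G16280, chromosome 4, 9207164 to 9214187 on the reverse strand, coordinates of the coding span in TAIR10) encodes an RNA-binding protein that promotes flowering by lowering *FLC* expression. It carried 2 of the 9 events. PSI of its retained intron was 0.28 at 16 °C and 0.18, 0.15 and 0.13 at 25 °C on days 1, 3 and 5. Retention thus fell on each of the 3 days, by 0.10, 0.13 and 0.15, and this was the only event of the 9 to be called throughout. For the alternative 5′ site of *FCA*, PSI was 0.43 in the cool and 0.46, 0.58 and 0.47 on the 3 days. It rose by 0.15 on day 3, while the values on days 1 and 5 lay within 0.04 of the cool value and were not called. The changes of the *FCA* events thus followed different courses, one growing from day to day and the other largest in the middle.

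The reference annotation (RefSeq, TAIR10.1) gives 4 transcripts of *FCA* with 19 to 22 exons. Among them are 2 introns that are spliced in some transcripts and retained in others, one of 204 bases at the 5′ end of the gene (9214283 to 9214486) and one of 2075 bases inside the coding span (9211512 to 9213586). The long one stands at percentile 99.9 of the lengths of 133551 annotated introns, whose median is 101 bases. It is the intron within which *FCA* transcripts are known to be polyadenylated early, which gives a truncated form and limits the amount of active protein. Event positions inside genes are not part of the table. Per the study's methods, the annotation was extended with transcripts rebuilt from the reads, so an event need not match an annotated alternative. Of the 246 listed retained intron events, 168 (68.3%) were in a gene with an annotated retained intron. Whether the measured retention belongs to either of these 2 introns or to another intron of *FCA* thus cannot be told. The ends of the long intron are shown with 15 bases of exon each, on the reverse strand, with intron bases in capitals.
FCA, chr4:9213572-9213601: ctggacagcagcaagGTATGTCAATCTCCA
FCA, chr4:9211497-9211526: CAGTCTTTAATGCAGgctgttgttttgtaa

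*HUA2* (AT5G23150, chromosome 5, 7786173 to 7792080, forward strand) encodes a nuclear PWWP domain protein that is required for full expression of *FLC* and *FLM* and for correct processing of the transcript of the floral identity gene *AGAMOUS*. It showed the largest change of the 9 events. PSI of its retained intron was 0.95 at 16 °C and 0.77, 0.71 and 0.66 on days 1, 3 and 5. Most transcripts thus kept the intron in the cool, and fewer did so in the warm. It fell by 0.18 on day 1 and by 0.24 on day 3. The difference on day 5 was larger still, -0.29, but carried no call. In the table, 33 events differed by at least this much on day 5, and 28 of them (84.8%) were called. The reason for the missing call was not tested.

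Among the 3 annotated transcripts of *HUA2* only 1 intron is retained in any, the 176 bases at 7791641 to 7791816 near the 3′ end of the coding sequence. In the transcript that keeps it the reading frame runs into a TAG stop codon that ends 8 bases after the intron begins, and the annotated protein has 1339 residues in place of 1392. Whether the measured event is this intron or another one of *HUA2* cannot be told. The intron is shown whole because no other is annotated as retained in the gene with the largest change. Its bases are in capitals between 15 bases of exon on each side.
HUA2, chr5:7791626-7791831: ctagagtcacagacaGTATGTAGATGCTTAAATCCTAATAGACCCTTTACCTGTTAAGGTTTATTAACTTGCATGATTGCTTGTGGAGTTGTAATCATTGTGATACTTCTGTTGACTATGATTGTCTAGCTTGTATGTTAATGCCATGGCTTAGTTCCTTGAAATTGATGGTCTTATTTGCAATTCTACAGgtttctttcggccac

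*EDM2* (AT5G55390, chromosome 5, 22448152 to 22454414, reverse strand) encodes a PHD finger protein best known for controlling where the transcript of the immune receptor gene *RPP7* ends, and also affects flowering through *FLC*. Retention of its intron was 0.24 at 16 °C and 0.42, 0.28 and 0.35 on days 1, 3 and 5. It rose by 0.18 on day 1. On day 3 the value was within 0.04 of the cool value and on day 5 it differed by 0.11, both without a call. Among the 9 events this was the only one whose day 5 value was closer to the cool value than its day 1 value was. The annotated retained intron of *EDM2* lies upstream of the start codon (22454438 to 22454702, 265 bases, or 22454493 to 22454702, 210 bases, by the acceptor used), and all 3 annotated transcripts encode the same 1297 residues.

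**Figure D1:**
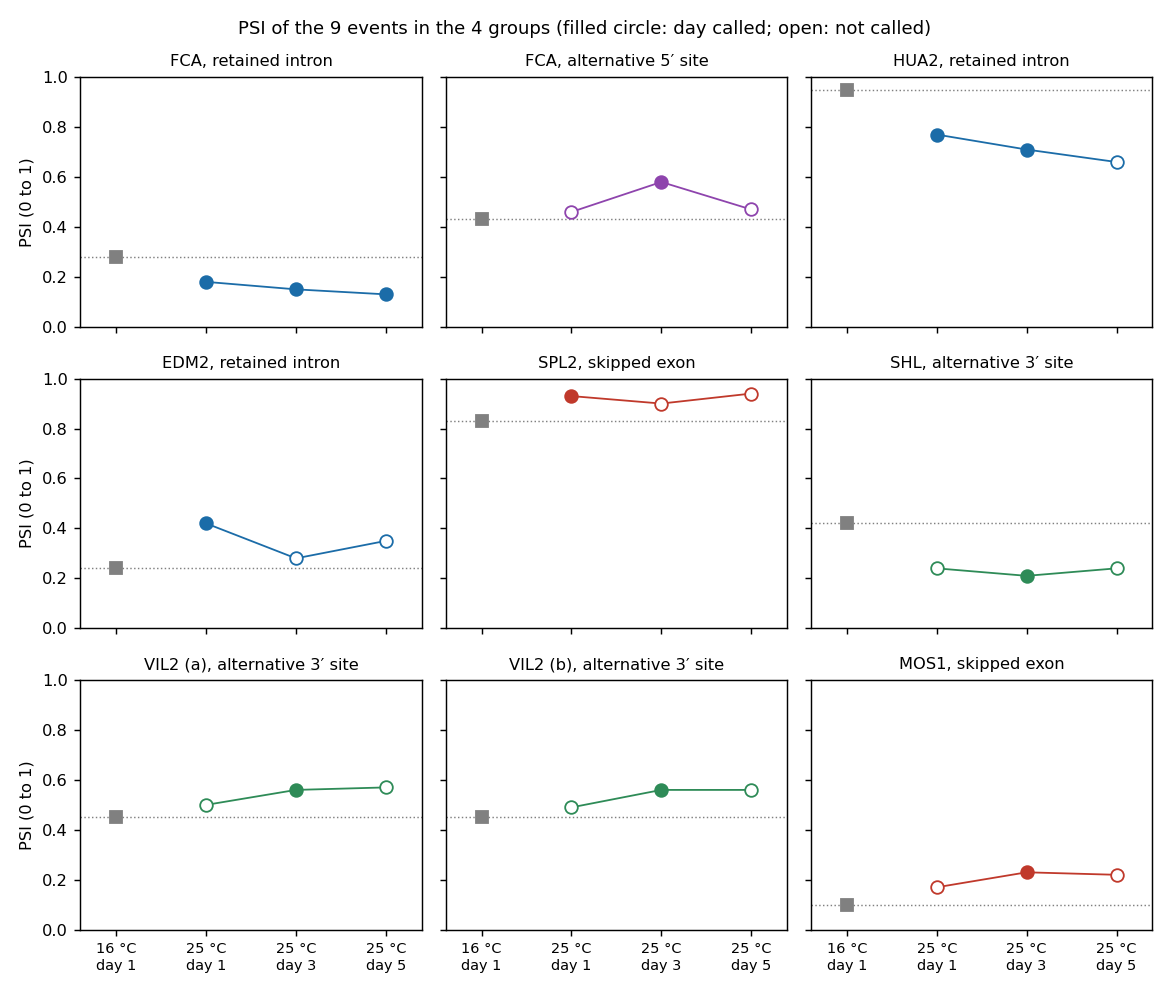
PSI (y axis, 0 to 1) of each of the 9 events in the 4 groups (x axis). The grey square and dotted line give the 16 °C group, circles the 25 °C groups, filled on days called different from 16 °C and open on others; each point is 1 group value with no error bar. HUA2 retention moved from 0.95 down to 0.66 and FCA retention from 0.28 down to 0.13, while the FCA alternative 5′ site departed from its cool value of 0.43 mainly on day 3 (0.58).

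*SPL2* (AT5G43270, chromosome 5, 17360527 to 17362143, reverse strand) encodes an SBP-box transcription factor targeted by miR156 that promotes the transition from juvenile growth to flowering. Inclusion of its skipped exon was 0.83 at 16 °C and 0.93, 0.90 and 0.94 on days 1, 3 and 5. It rose by 0.10 on day 1, and the values of days 3 and 5, not called, were 0.07 and 0.11 above the cool value. The 3 annotated transcripts of *SPL2* hold no skipped exon. They differ in the 5′ leader, where alternative 5′ sites are used, and share a protein of 419 residues. It was the only one of the 9 events with no annotated alternative of its own type.

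*SHL* (AT4G39100, chromosome 4, 18218712 to 18220134, reverse strand), named *SHL1* in the table, encodes a small protein with a BAH domain and a PHD finger that reads histone H3 methylation and represses flowering. PSI of its alternative 3′ site was 0.42 at 16 °C and 0.24, 0.21 and 0.24 on days 1, 3 and 5. It fell by 0.21 on day 3. The differences on days 1 and 5 were both -0.18 and carried no call, although that of day 1 equalled in size the called changes of *HUA2* and *EDM2*. The 3 warm values spanned only 0.03, the narrowest range of the 9 events.

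The annotation gives a single pair of alternative 3′ sites in *SHL*, 20 bases apart (18218734 to 18218753). Because 20 is not a multiple of 3, the sites lead to different frames. The transcript that uses the upstream site encodes 228 residues, and the transcript that uses the downstream site meets a TAA stop codon that ends 22 bases into the exon and encodes 169. The coding span that the table gives for *SHL* is that of the 169-residue form. The sites are shown with the 20 bases between them in capitals, after 25 bases of intron and before 25 of exon; each acceptor ends in ag.
SHL, chr4:18218709-18218778: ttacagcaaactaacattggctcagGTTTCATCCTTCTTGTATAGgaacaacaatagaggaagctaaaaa

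*VIL2* (AT4G30200, chromosome 4, 14787045 to 14790070, reverse strand), listed as *VEL1* in the reference, encodes a PHD finger protein of the VIN3 family that works with Polycomb repressive complex 2, which silences flowering repressors by methylating histone H3. It carried 2 alternative 3′ site events with nearly the same values. PSI of the first was 0.45 at 16 °C and 0.50, 0.56 and 0.57 on days 1, 3 and 5, and that of the second was 0.45, 0.49, 0.56 and 0.56. Both rose by 0.11 on day 3. The day 1 differences were 0.05 and 0.04 and the day 5 differences 0.12 and 0.11, none of them called. As the events belong to the same gene and share their values to within 0.01, they are not separate evidence. The annotation holds a single pair of alternative 3′ sites here, 36 bases apart (14787916 to 14787951), which adds whole codons; the proteins with and without them have 714 and 702 residues when the rest is the same. The bases between these sites are in capitals.
VIL2, chr4:14787891-14787976: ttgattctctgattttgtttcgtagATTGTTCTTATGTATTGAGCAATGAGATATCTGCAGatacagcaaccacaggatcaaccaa

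*MOS1* (AT4G24680, chromosome 4, 12733425 to 12739737, forward strand) encodes a protein with a BAT2 domain that regulates expression of the immune receptor gene *SNC1* and has a role in flowering time. Inclusion of its skipped exon was 0.10 at 16 °C and 0.17, 0.23 and 0.22 on days 1, 3 and 5. It rose by 0.13 on day 3. The values of days 1 and 5 were 0.07 and 0.12 above the cool value, without a call. The 5 annotated transcripts include 1 that lacks an exon ending at 12735787, and the exon starts at 12735671 or 12735713 in the others, so that it has 117 or 75 bases. Both lengths are multiples of 3, and the protein without the exon has 1387 residues against 1412 with its short form in the otherwise matching transcript. The long form is shown in capitals; the ag just before ATGCTGG is the acceptor of the short form.
MOS1, chr4:12735656-12735802: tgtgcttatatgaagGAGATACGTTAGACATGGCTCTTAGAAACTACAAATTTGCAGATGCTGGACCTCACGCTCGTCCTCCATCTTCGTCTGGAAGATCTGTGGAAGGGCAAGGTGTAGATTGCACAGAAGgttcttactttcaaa

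**Figure D2:**
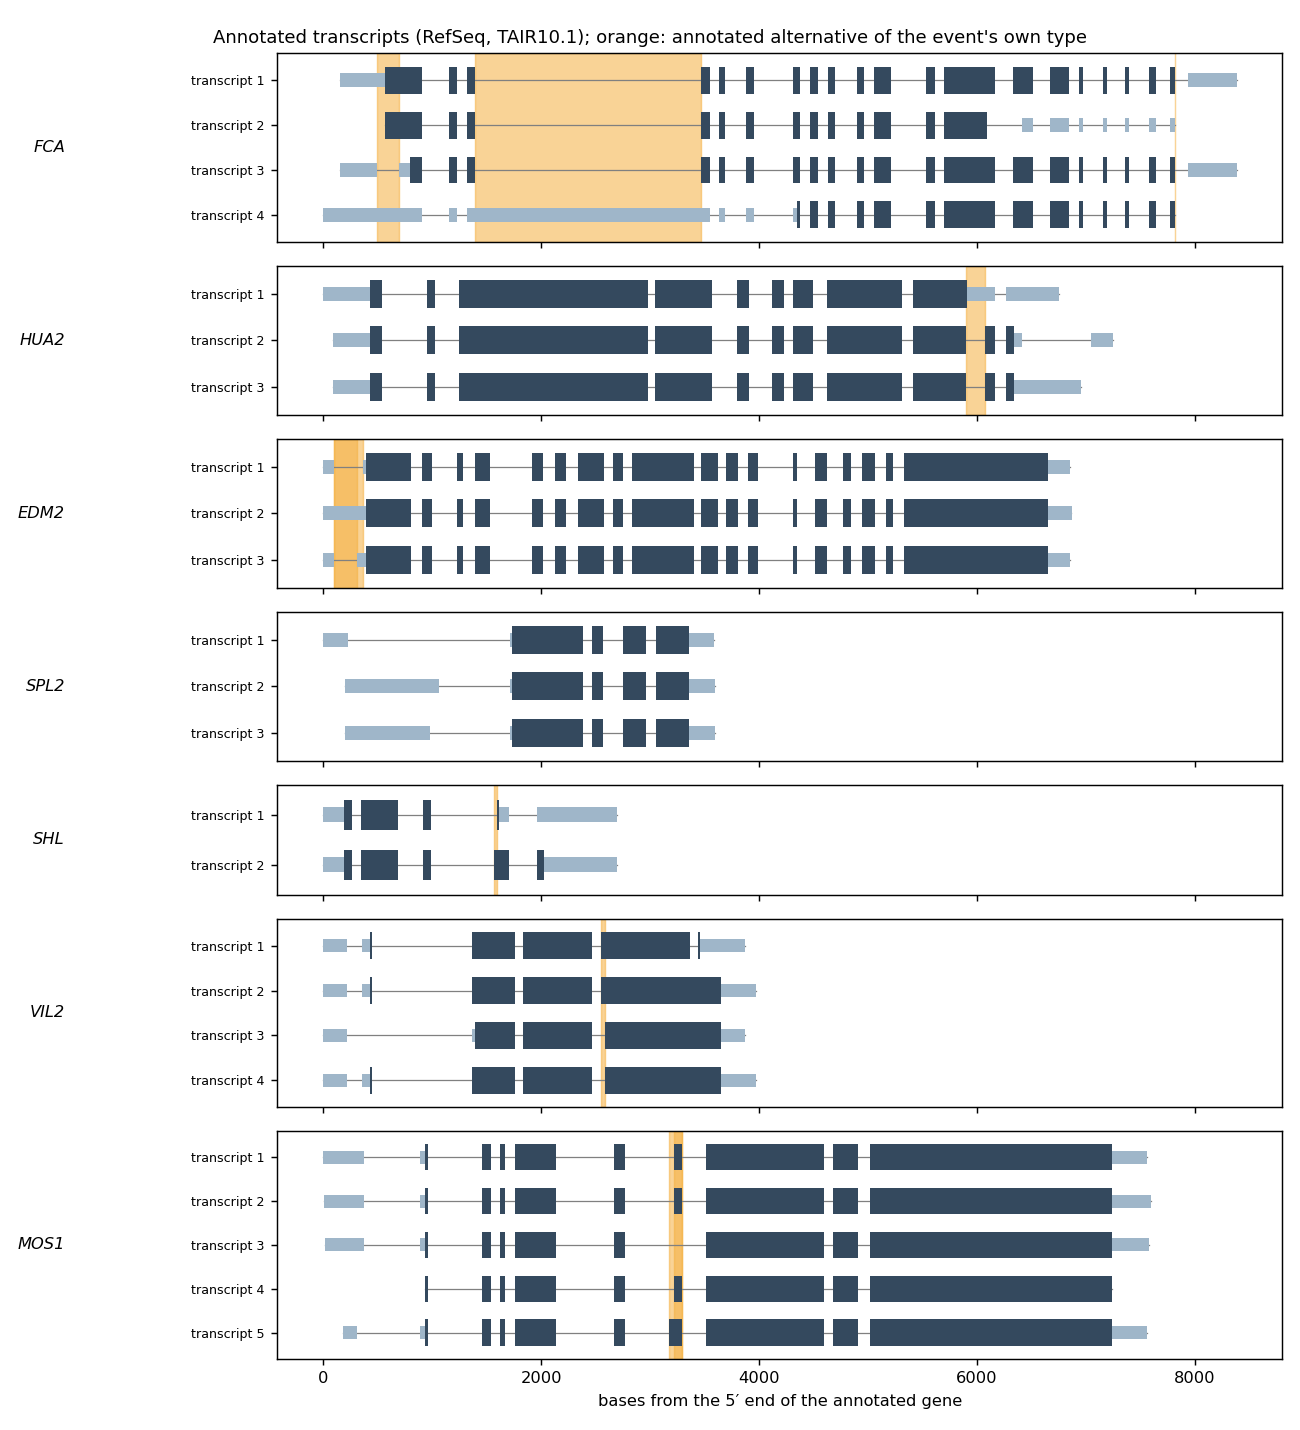
Annotated transcripts of the 7 genes (RefSeq, TAIR10.1), with distance in bases from the 5′ end of the gene on the x axis; thin pale boxes are exons, thick dark boxes coding sequence, and orange bands mark annotated alternatives of the same type as the gene's measured event. FCA has such bands at 3 places, HUA2 has its only band at the last part of the coding sequence, EDM2 has its bands before the coding sequence, and SPL2 has none.

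Of the 9 events, 8 (88.9%) had at least 1 annotated alternative of the same type in their gene, against 418 of 636 listed events (65.7%; mutually exclusive exons left out). Pairs of alternative sites were counted only where the other end of the intron was shared. For *HUA2*, *SHL*, *VIL2* and the *FCA* alternative 5′ site there was exactly 1 counted alternative. That of the *FCA* site is a difference of 1 base outside the coding span. An intron inside the coding span differs at both ends in the *FCA* transcript that encodes 533 residues. Its 5′ sites thus differ too but were not counted, and which place the measured *FCA* event belongs to cannot be told. Where the alternative lay inside the coding span, it was a multiple of 3 bases long in *VIL2* and *MOS1* and not so in *HUA2*, *SHL* and the long *FCA* intron. These are properties of the annotation and not measurements of the samples.

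The median absolute difference of the 9 events was 0.10, 0.13 and 0.12 on days 1, 3 and 5, against 0.11 on each day over the 638 events. A difference of at least 0.1 was present in 5, 7 and 8 of the 9 events, against 60.8%, 59.9% and 56.4% of all events, and this is a description without a test. The absolute difference of *HUA2*, the largest of the 9 in the mean over the days, lay at percentile 76.4 of the table on day 1, 90.8 on day 3 and 95.5 on day 5. *SHL* lay at 76.4, 85.7 and 78.8. *FCA* retention moved up from percentile 42.7 to 58.3 and 69.5, while the *FCA* alternative 5′ site lay at 4.4, 68.6 and 10.0.

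PSI was higher at 25 °C in 6 and lower in 3 of the 9 events, on each of the 3 days. The lower ones were the retained introns of *FCA* and *HUA2* and the alternative 3′ site of *SHL*. Intron retention moved in both directions within the set, as *EDM2* retention was higher, and both skipped exons (*SPL2* and *MOS1*) were included more. Among all 638 listed events 317 were higher and 320 lower on day 1. *FCA* was among 86 listed genes with 2 or more events, of which 38 (44.2%) had events in both directions, as *FCA* did.

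**Figure D3:**
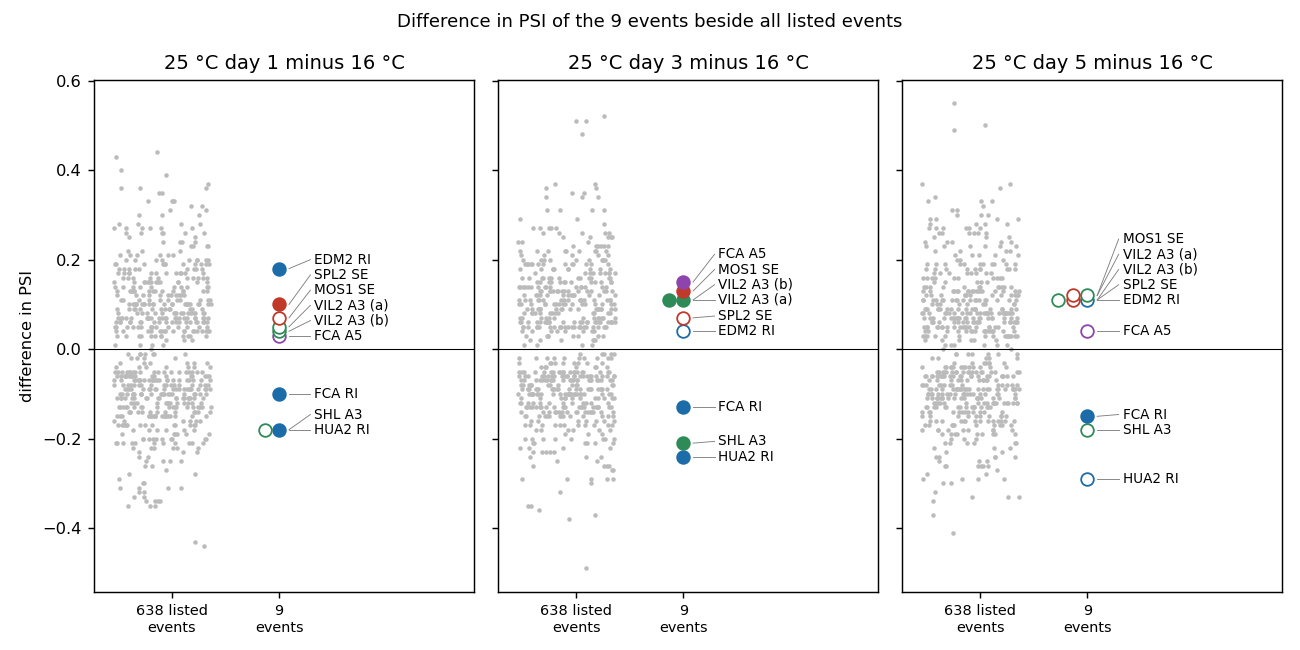
Difference in PSI from 16 °C (y axis) on days 1, 3 and 5 at 25 °C; grey points are the 638 listed events, spread sideways for visibility, and circles are the 9 events, filled where called, coloured by type (RI, retained intron; SE, skipped exon; A3 and A5, alternative 3′ and 5′ sites) and shifted sideways where values are equal. HUA2 moved from -0.18 to -0.29, towards the edge of the table's values, while most other circles lay between -0.2 and 0.2.

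Calls were counted by day. On day 1, 4 of the 9 events were called (*FCA* retention, *HUA2*, *EDM2* and *SPL2*), where 59.9% of the listed events were. On day 3, 7 were called, against 58.0% of the table, and on day 5 only *FCA* retention was, against 52.8%. Counted by gene, 4, 5 and 1 of the 7 genes had a call on the 3 days, against 60.9%, 59.5% and 55.8% of the 511 listed genes, so that by gene the counts of days 1 and 3 lay near those shares. The alternative 5′ site of *FCA*, *SHL*, both *VIL2* events and *MOS1*, 5 events in all (55.6%), were called on day 3 alone, as were 107 (16.8%) of the table. These shares were not tested, and 2 of the 5 events are the near-identical pair in *VIL2*.

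On day 5, 8 of the 9 events differed by at least 0.1 from 16 °C and 1 was called. Their median difference was 0.12, against 0.13 on day 3, and the *FCA* alternative 5′ site, *EDM2*, *SHL* and *MOS1* differed less than on the day of their call. The reason for the few calls was not tested. Over the table, 62.6% of the 254 events that differed by 0.1 to 0.2 on day 5 were called, 80.2% of the 81 from 0.2 to 0.3 and 96% of the 25 beyond. No event with a difference under 0.05 was called on any day. On uncalled days the *FCA* alternative 5′ site showed the smallest part of its called change. Its mean difference on days 1 and 5 was 23.3% of that on day 3. The mean difference of *EDM2* on days 3 and 5 was 41.7% of that on day 1. The same ratio of uncalled to called days was 68.2% and 77.3% for the *VIL2* events, 73.1% for *MOS1*, 85.7% for *SHL* and 90.0% for *SPL2*, and in *HUA2* the uncalled day 5 exceeded the mean of the called days (138.1%). In 6 of the 8 events with an uncalled day the ratio was above 50%, and the *FCA* alternative 5′ site and *EDM2* were below it. No such ratio is given here for the whole table, so this count has no share to be set against. Larger differences were called more often, so the choice of days can by itself lower the ratio. For the events called on day 3 alone, the uncalled day 1 also came before the call. All these differences share the 16 °C value.

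**Figure D4:**
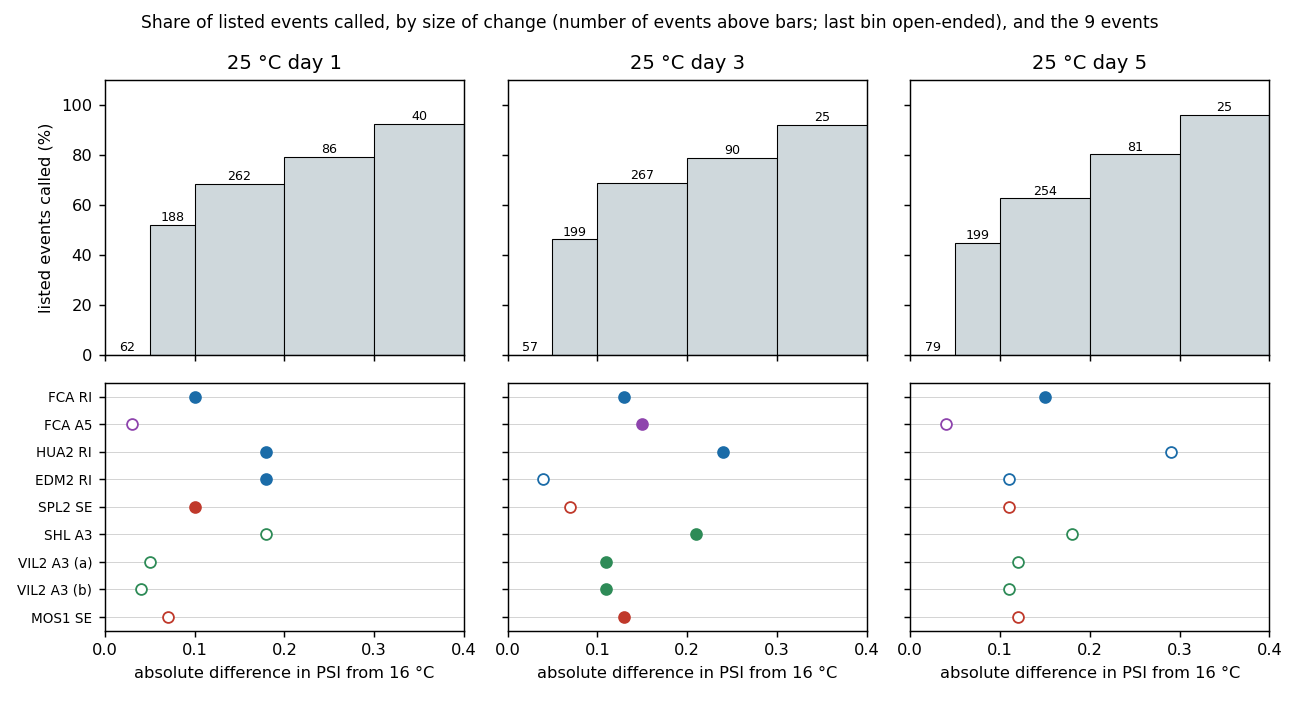
Upper panels, percent of listed events called on each day (y axis) by absolute difference in PSI from 16 °C (x axis), with the number of events above each bar and the last bin open-ended. Lower panels, absolute difference of the 9 events on the same x axis, filled where called. On day 5 the HUA2 difference of 0.29 was open although 80.2% of events from 0.2 to 0.3 were called.

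Between days 1 and 5 at 25 °C, PSI moved away from the cool value by at least 0.05 in 5 of the 9 events, namely *HUA2*, *FCA* retention, *MOS1* and the near-identical *VIL2* pair. It moved back by at least as much in *EDM2*, and in the other 3 events the values of the days differed by at most 0.01, which rounding does not resolve. Of all 638 listed events, 101 (15.8%) moved away and 146 (22.9%) moved back by at least 0.05, and these shares were not tested. The changes from day 1 to day 5 were -0.11 in *HUA2*, -0.05 in *FCA* retention, 0.07 in both *VIL2* events, 0.05 in *MOS1*, 0.01 in *SPL2* and in the *FCA* alternative 5′ site, and -0.07 in *EDM2*. The median absolute change was 0.05, against 0.03 for the table. In *HUA2* and *FCA* retention each day was further from 16 °C than the one before. In the *VIL2* pair day 3 was further than day 1, while days 3 and 5 differed by at most 0.01. With 1 value per group, none of these steps can be set against a spread between samples.

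Relatives and partners of these genes were mostly not listed. Of 58 other genes on lists of flowering pathways, 4 were in the table with 6 events. The mean over the warm days was above the cool value in 2 of these events and below it in 4. No share of listed genes over the whole genome is given here, so the 4 of 58 cannot be called few or many. The other 7 genes of the autonomous pathway, to which *FCA* belongs, had no event, nor had the other 15 *SPL* genes, the other 10 genes of the Polycomb and vernalization list, the 10 floral integrator and photoperiod genes, the *SHL* relative *EBS*, the *EDM2* target *IBM1*, or the 5 genes for writers, readers and an eraser of histone H3 lysine 36 methylation. A gene that is not listed had no called event, and whether it was tested is unknown. Of the lists that hold a described gene, only that of the HUA2 family had another listed gene. *HULK3* (AT3G63070), a relative of *HUA2* with the same PWWP domain, had an alternative 3′ site with PSI of 0.25 in the cool and 0.10, 0.11 and 0.11 on the 3 warm days, a fall on each of them. The 2 other *HULK* genes were not listed. The remaining listed genes were *FLM*, *MAF2* and *MAF3*, 3 of the 6 genes on the list of the FLC family, with 5 events, 2 higher and 3 lower. The alternative 3′ site of *MAF3*, like that of *SHL*, was called on day 3 alone, with PSI of 0.97 in the cool and 0.84, 0.77 and 0.81 in the warm.

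The course of *HUA2* retention had close matches among the 245 retained introns of other genes. The nearest by the mean absolute gap between the 3 differences were AT1G61430, annotated as an S-locus lectin protein kinase, and AT4G02540, annotated as a C1 domain protein, both with a gap of 0.027. Retention in AT1G61430 was 0.63 in the cool and 0.41, 0.40 and 0.37 in the warm, and that in AT4G02540 was 0.74, then 0.52, 0.48 and 0.47. The next was a retained intron of the phospholipase gene *PLDGAMMA3* (AT4G11840), with a gap of 0.04 and PSI of 0.84, 0.67, 0.68 and 0.58. All 3 started from a lower PSI in the cool than the 0.95 of *HUA2*. Another retained intron event of *PLDGAMMA3*, not among these nearest ones, went the other way. It rose by 0.39, 0.48 and 0.55 on days 1, 3 and 5.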

How the data were processed

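RNA-seq libraries of 12 samples, 3 in each of 4 groups taken from the sample titles, were processed by the authors with TopHat and Cufflinks on TAIR10 per the labels, and with MISO per the study's methods, whose versions are not stated there. The deposited values are fractions (PSI per group, rounded by the authors to 2 decimals, from 0.01 to 0.99). The methods give PSI estimates both per sample and on the merged replicates of a group; which of these the single deposited value per group comes from is not stated. The table also holds the authors' own calls per day, given here only as marks beside the PSI; 1 event can be called on several days. Columns of no sample of this series numbered 0.

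Differences, medians and percentiles (ties counted as midpoints) were computed with Python 3.11.15, pandas 2.3.3 and numpy 2.4.6, and the arithmetic was tested on simulated data. No test across replicates was run, since there is 1 value per group. Annotated alternatives came from pairwise comparison of RefSeq transcripts, and alternative sites were counted only where the other end of the intron was shared. The coding span in the table equalled that of a RefSeq transcript for 476 of 484 genes with coordinates, including all 7 genes described. Members and gene lists were chosen with earlier results of these data known; all events of the 7 genes, all listed genes of the pathway lists and the 3 events nearest to the largest change are named. Alternatives tried were a minimum difference, counting genes or 1 event per gene and type, leaving out each gene, comparing within event type, the logit scale and other measures of persistence.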

Additional observations from a re-analysis of the deposited data

How the results depend on the processing

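With a minimum difference of 0.1, 2 events were higher on day 1 in place of 6. With the same minimum in place of the calls, 8 events would count on day 5 in place of 1. On the logit scale the median percentile of the 9 events on day 3 was 38.2 in place of 58.3, since the scale weighs changes near 0 or 1 more. The 52 other alternative values of the same quantities stayed within 1.5 times the reported ones, including those that left out each gene. The 9 ratios of the day 5 to the day 1 change are another quantity and were not set against the differences. No paired analysis was possible because the table gives 1 value per group. Read depth and spread between replicates are unknown for each event. Whether a missing call came from low coverage, the filter on replicates, the Bayes factor or a lower limit on the difference thus cannot be told. The study's methods state no such limit, but no event with a difference under 0.05 was called on any day. PSI is rounded to 2 decimals, so differences of 0.01 cannot be resolved.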
